A study of Mus musculus with 24 samples.

Results

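Zscan4b, Zscan4c, Zscan4e and Tcstv3 were followed across mouse embryonic stem cells and embryoid bodies (EBs), by their symbols in a table of read counts for 23284 genes, of which they are 4. They were chosen by their normalised levels in these same libraries, which were already known (the contrast used is not recorded), so their levels and differences are given here as a description and with no test. RNA was sequenced after poly(A) selection from C57BL/6 embryonic stem cells grown with serum and LIF on feeder fibroblasts. There were 4 genotypes: f/f, the conditional Eed line without tamoxifen, labelled wild type; KO, the same line after 4-OH tamoxifen (800 nM); KO+WT, deleted cells with wild-type EED added back; and KO+N-KR, deleted cells with the EED form that the labels name N-KR and do not spell out. Cells in the state labelled 3i, day 1 EBs and day 2 EBs of every genotype gave 12 groups, and each group has 2 libraries. Only f/f went without tamoxifen, and the labels do not say how many clones each line holds, so genotype, tamoxifen and the history of a line cannot be told apart in comparisons with f/f, nor genotype and line history in the others.

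The mouse Zscan4 genes are a cluster of near-identical copies that encode proteins with a SCAN domain and zinc fingers. They are transcribed in the late 2-cell embryo, and in stem cell cultures they switch on for short periods in a small share of cells, a state called 2-cell-like, in which they have been linked to telomere lengthening and genome stability. Tcstv3, a member of the 2-cell-stage variable group, belongs to the same set of genes. Repressors of this state include chromatin factors such as Trim28, Setdb1 and the variant Polycomb complex with L3mbtl2, and the homeobox factor Dux is a known activator. PRC2, the Polycomb enzyme that methylates histone H3, needs its subunit EED.

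The copies cannot be counted apart with confidence. In the GENCODE M21 transcripts, 90.1% of the 50-base windows of Zscan4b, 85.5% of those of Zscan4c and 89.0% of those of Zscan4e occur exactly in the transcript of another gene, and 31.4% of those of Tcstv3. At 100 bases the shares are 76.3%, 72.8%, 81.5% and 7.79%. The upstream sequences of the copies show the same closeness. They are from RefSeq (GRCm38.p6, while the build named for the counts is mm9), in which 2 of the 4 genes had an entry, and the copy Zscan4f is set beside them because its 250 bases before the start are 99.6% identical to those of Zscan4c where the pair align. Capitals mark the letters TATAAA, the core of a TATA box.
Zscan4b, chr7:10905051-10905300, reverse strand: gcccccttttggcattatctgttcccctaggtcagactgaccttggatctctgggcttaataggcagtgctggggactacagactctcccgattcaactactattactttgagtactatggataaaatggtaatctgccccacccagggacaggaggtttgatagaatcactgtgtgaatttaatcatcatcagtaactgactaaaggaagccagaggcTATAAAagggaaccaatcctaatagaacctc
Zscan4c, chr7:11005495-11005744, forward strand: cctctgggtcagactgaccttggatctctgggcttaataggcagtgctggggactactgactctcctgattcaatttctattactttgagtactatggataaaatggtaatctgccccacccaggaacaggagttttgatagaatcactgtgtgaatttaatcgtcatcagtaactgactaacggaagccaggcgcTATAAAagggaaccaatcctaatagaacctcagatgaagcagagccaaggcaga
Zscan4f, chr7:11397665-11397914, forward strand: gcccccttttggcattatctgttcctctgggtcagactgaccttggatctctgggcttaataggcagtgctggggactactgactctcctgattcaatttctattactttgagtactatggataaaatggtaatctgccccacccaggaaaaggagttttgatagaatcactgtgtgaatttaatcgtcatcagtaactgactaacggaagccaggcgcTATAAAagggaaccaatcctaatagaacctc

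Zscan4b and Zscan4c are 94.7% identical over the 227 bases that align in these windows. TATAAA starts 31 bases before the annotated start of Zscan4b and Zscan4f and 54 bases before that of Zscan4c. On either strand, 12.4% of all 32851 upstream windows of this length hold it, and 7.59% hold it in the direction of the gene, as here. These windows hold 1 CG dinucleotide in Zscan4b and 3 in Zscan4c and Zscan4f, against a median of 6 over all windows. As few or fewer are found in 18.8% of all windows for Zscan4b and in 37.8% for Zscan4c and Zscan4f.

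Reads also appear to be counted in more than 1 row. Of the rows with at least 100 reads in all, 50 were identical to another row in every library, in 23 sets. One set is Gm13040 and Gm13057, described further on. A summed count can therefore hold the same read more than once, so the counting intervals given here are narrower than the true ones. Of the counts in the 6 Zscan4 rows, Zscan4c held 21.74% to 25.55% in each of the 12 groups, Zscan4b 9.97% to 14.8% and Zscan4e 11.9% to 14.7%. The genes are therefore given singly and as a sum.

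The smallest library held 7553683 counts and the largest 14426034. Over all genes, libraries of 1 group differed by 1.10 to 1.18 times the variance of binomial sampling, against 3.48 to 15.5 times between genotypes of a state, and they were summed to 1 sample, so a genotype in a state has no biological replicate. Levels are CPM, counts scaled to library size with TMM factors. For the 4 summed genes the libraries differed more, by 4.01 times the binomial variance on average, with the largest value, 21.9, in f/f at day 1. Eed itself, counted over the whole gene and so no check of the deletion, stood at 131 to 219 CPM in f/f, 102 to 172 in KO, 187 to 388 in KO+WT and 121 to 181 in KO+N-KR. All 10 markers of pluripotent cells had counts in each group (5300 to 8508 CPM summed).

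The 4 genes together were lowest in KO+N-KR in every state. In KO+N-KR they summed to 56 counts at 3i (2.68 CPM), 156 at day 1 (7.50 CPM) and 111 at day 2 (5.45 CPM). In KO+WT the sums were 447, 633 and 710 counts, or 24.2, 30.7 and 27.8 CPM. KO had 289, 267 and 690 counts, or 12.3, 12.4 and 30.9 CPM, and f/f had 253, 464 and 601 counts, or 10.2, 23.6 and 27.7 CPM. The 6 KO+N-KR libraries lay between 1.82 and 8.03 CPM, all below the other 18, which lay between 10.1 and 35.3 CPM. In bulk RNA, fewer cells that express these genes and less RNA in each such cell cannot be told apart.

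**Figure D1:**
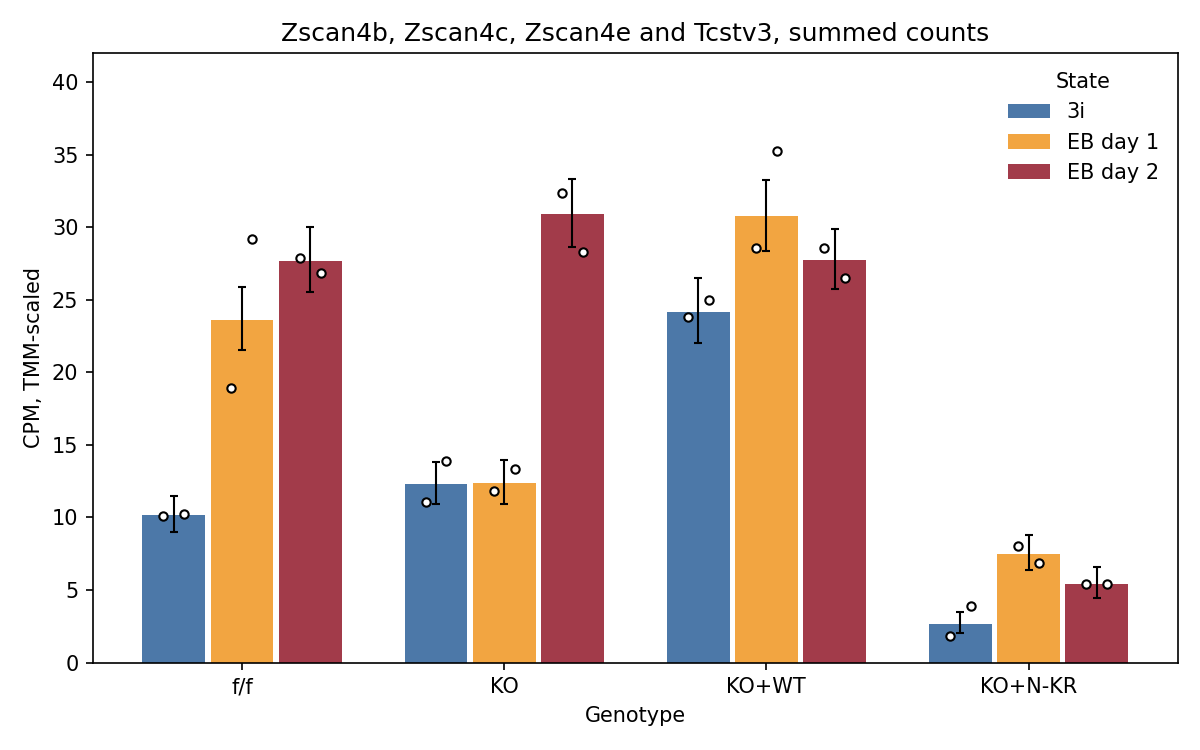
Summed counts of Zscan4b, Zscan4c, Zscan4e and Tcstv3 in CPM (TMM-scaled) by genotype and state. Bars are the 2 libraries of a group summed, circles the single libraries, and error bars 95% Poisson intervals of the summed count, which cover counting error only. The KO+N-KR bars, at 2.68 to 7.50 CPM, are below all others, and KO differs from f/f mainly at day 1.

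The 12 groups fell in a high and a low set. From the top, the order was KO at day 2, KO+WT at day 1, KO+WT at day 2, f/f at day 2, KO+WT at 3i and f/f at day 1, all at 23.6 CPM or more. Below them came KO at day 1, KO at 3i, f/f at 3i and KO+N-KR at day 1, day 2 and 3i, all at 12.4 CPM or less. Neighbours in this order had overlapping counting intervals except at 3 steps: f/f at day 1 above KO at day 1, f/f at 3i above KO+N-KR at day 1, and KO+N-KR at day 2 above KO+N-KR at 3i. The single libraries of f/f at day 1 were far apart, at 18.9 and 29.2 CPM, and both were above each KO library at day 1.

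The contrast of KO+N-KR with KO+WT sets the N-KR form of EED against the wild type. Eed RNA was also lower in KO+N-KR than in KO+WT, so the form of EED and the level of its RNA cannot be told apart. The summed genes were 8.73-fold lower in KO+N-KR at 3i (log2 ratio -3.13, 95% exact binomial interval of the counts -3.60 to -2.77). They were 4.06-fold lower at day 1 (-2.02, -2.30 to -1.78) and 5.03-fold lower at day 2 (-2.33, -2.65 to -2.06). From replicate 1 libraries alone the log2 ratio was -3.60 at 3i, -1.81 at day 1 and -2.36 at day 2, and from replicate 2 libraries alone it was -2.59, -2.31 and -2.25. Zscan4b, Zscan4c and Zscan4e, 3 of the 4 genes, were lower by 2-fold or more, with the higher of the samples at 5 CPM or more, at 3i, where 0.243% of 15220 genes were, and again at day 1 (0.112%) and day 2 (0.092%). This contrast belongs to the values with which the genes were picked, and the shares are given for scale only.

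Zscan4c, the copy with the most counts, had 11 and 14 reads in the 2 KO+N-KR libraries of 3i, 57 and 25 in those of day 1, and 30 and 23 in those of day 2. The KO+WT libraries held 122 and 81 reads for 3i, 155 and 123 for day 1, and 191 and 122 for day 2. No KO+N-KR library reached any KO+WT library, and the highest KO+N-KR library (4.58 CPM) was just under the lowest of the other 18 (4.65 CPM, f/f at 3i). Its log2 ratio between these lines was -3.09 at 3i, -1.75 at day 1 and -2.20 at day 2.

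Zscan4b stood at 0.814 CPM at 3i, 1.54 at day 1 and 1.47 at day 2 in KO+N-KR. Its KO+WT levels were 5.95, 7.77 and 7.04 CPM. Zscan4e stood at 0.670, 1.87 and 1.33 CPM against 6.27, 8.40 and 7.70 CPM. For both, as for Zscan4c, the 6 KO+N-KR libraries lay below all 18 others, a pattern that 0.0591% of the genes tested showed.

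Tcstv3 is a low count throughout. Its libraries held 0 and 0 reads in KO+N-KR at 3i, then 2 and 1 on day 1, then 1 and 0 on day 2. In KO+WT they held 11 and 7, 11 and 11, and 12 and 8 reads. At 3i, 3 counts, taken as the limit that 0 allows over the group, are 0.144 CPM. That is 6.78-fold below KO+WT if its 18 counts are taken as exact. The counting interval of the log2 ratio, which covers the error of both counts, had its upper end at -2.31. At day 1 the log2 ratio was -2.27 with a counting interval from -5.27 to -1.16, and at day 2 it was -2.67 (-9.37 to -1.35). All 6 KO+N-KR libraries were below all 6 KO+WT libraries, as for 0.335% of genes, but not below the other genotypes, since 1 f/f library at day 1 held 0 reads. Per kilobase of the longest annotated transcript, Tcstv3 at 3i stood at 1.25 CPM in KO+WT, against 4.82 for Zscan4c.

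**Figure D2:**
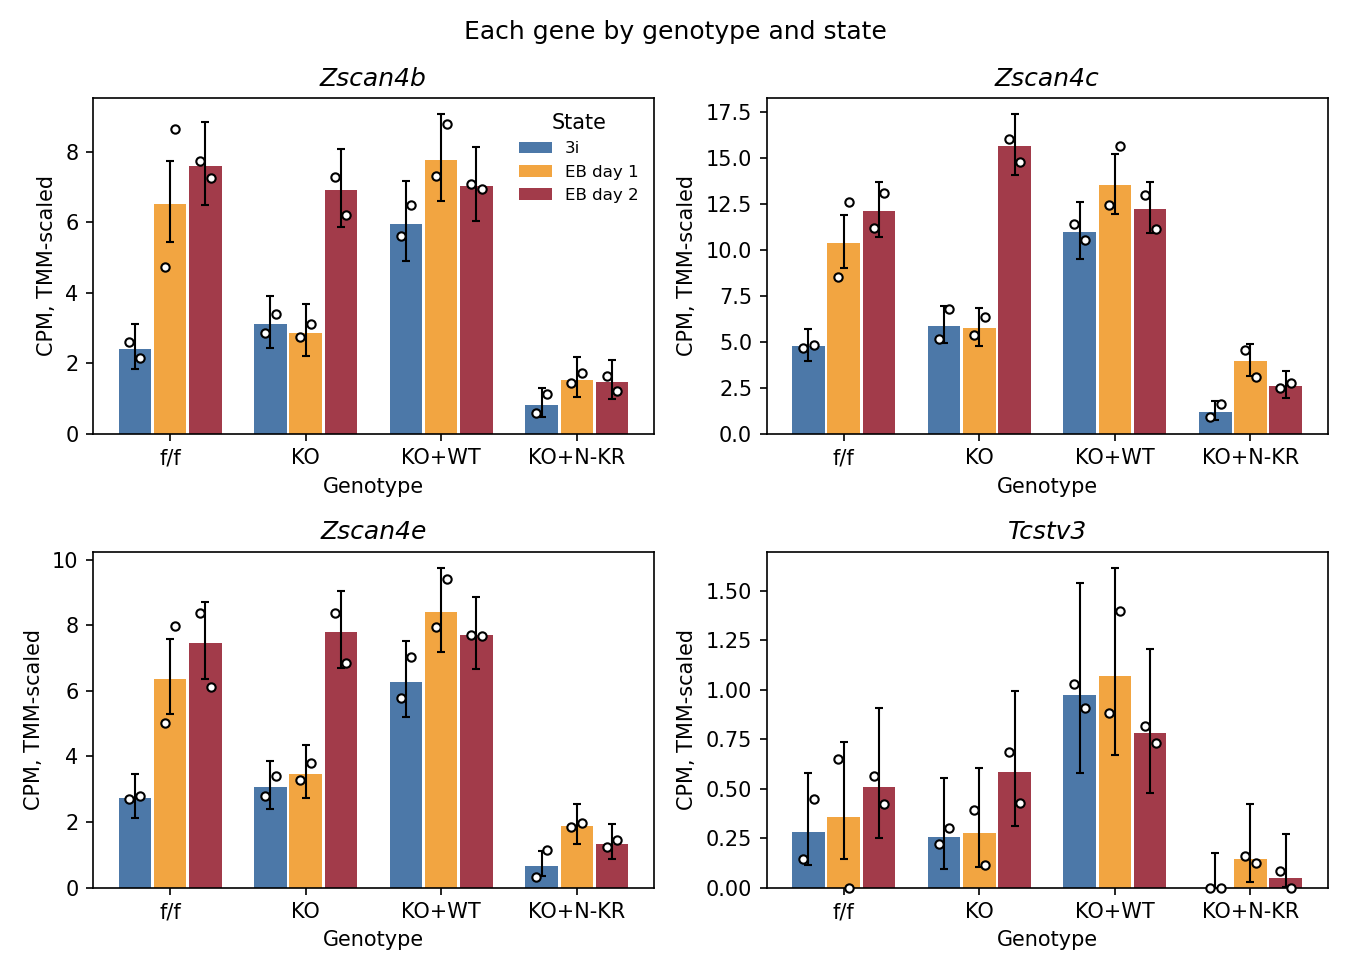
Zscan4b, Zscan4c, Zscan4e and Tcstv3 by genotype and state in CPM (TMM-scaled), each panel with its own axis from 0. Bars, circles and error bars are as for the sum. The Zscan4 panels share 1 pattern, while Tcstv3, with at most 22 counts in a group, stands highest in KO+WT in every state.

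The contrast of KO with f/f sets deleted against undeleted cells. At 3i the summed genes were 1.21-fold higher in KO (log2 ratio 0.27, 0.02 to 0.52) and at day 2 1.12-fold higher (0.16, 0.00 to 0.32). At day 1 they were 1.90-fold lower (-0.93, -1.16 to -0.71). Zscan4b alone was past 2-fold at day 1 (6.52 CPM in f/f, 2.87 in KO), where 0.131% of genes were lower by that rule. Zscan4c was 1.80-fold and Zscan4e 1.81-fold lower there. Tcstv3 had 7 counts in f/f and 6 in KO at 3i and again at day 1, and 11 and 13 at day 2, which cannot show a difference at this depth. With replicate 1 libraries alone the sum at day 1 differed less (-0.67).

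The contrast of KO+WT with KO sets deleted cells with wild-type EED added back against deleted cells. The summed genes were 1.96-fold higher in KO+WT at 3i (log2 ratio 0.97, 0.76 to 1.20) and 2.48-fold higher at day 1 (1.31, 1.11 to 1.53). At day 2 they were 1.11-fold lower (-0.16, -0.31 to -0.002). By the size rule 1 of the 4, Zscan4e, was higher at 3i (0.289% of genes) and 3 of 4 at day 1 (0.486%). At 3i Zscan4e was 2.02-fold higher, with Zscan4b at 1.89-fold and Zscan4c at 1.86-fold just under the rule. Tcstv3 was higher in KO+WT at 3i (18 against 6 counts, 1.61) and day 1 (22 against 6, 1.64), and at day 2 its interval spanned 0 (20 against 13, 0.38, -0.65 to 1.55). This comparison and the one with f/f use the same KO samples. The 16 feeder markers summed to 773, 114 and 142 CPM in KO+WT for 3i, day 1 and day 2, and to 512, 83.0 and 94.9 CPM in KO. The 14 endoderm markers summed to 444, 290 and 405 CPM in KO+WT and 480, 370 and 530 CPM in KO. Most of the endoderm sum was from the basement membrane genes Lamb1, Col4a1, Lama1 and Col4a2. The part of feeder and endoderm markers in the result was not tested.

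KO+N-KR was also below KO. The summed genes were 4.47-fold lower at 3i (log2 ratio -2.16, -2.64 to -1.78), 1.64-fold lower at day 1 (-0.71, -1.02 to -0.43) and 5.60-fold lower at day 2 (-2.49, -2.81 to -2.21). By the size rule Zscan4c was lower at 3i (0.453% of genes) and 3 of 4 at day 2 (1.87%), and 0 at day 1 (0.631%). At 3i Zscan4b was 3.53-fold and Zscan4e 4.15-fold lower too, beside 4.63-fold for Zscan4c. They missed the rule because their KO levels, 3.10 and 3.06 CPM, were under its 5 CPM. The endoderm markers summed to 625, 511 and 632 CPM in KO+N-KR for 3i, day 1 and day 2, beside the KO sums above, and their part was not tested.

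From 3i to EBs the lines took different courses. In f/f the sum was 1.21 higher on the log2 scale at day 1 than at 3i (0.99 to 1.44), and 0.23 higher at day 2 than at day 1. In KO it differed by 0.01 from 3i to day 1 (-0.24 to 0.25) and 1.32 higher at day 2 than at day 1 (1.12 to 1.53). KO+WT was already high at 3i and differed by 0.34 from 3i to day 1 and by -0.15 from day 1 to day 2. KO+N-KR was 1.45 higher at day 1 than at 3i (1.04 to 1.95), from the lowest level of all, and 0.45 lower at day 2 than at day 1 (-0.83 to -0.10). Whether these courses differ between lines was not tested, as each point is 1 sample.

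Tests were run on genes outside the 4, with an additive edgeR model of genotype and state on the 12 samples, in which the states serve as the samples of a genotype, and Benjamini-Hochberg adjustment over 15220 genes (threshold 0.05). Fold changes from this model are log2 values ± SE. Its p-values set a difference against its variation from state to state, since no genotype has a second independent line. The remaining copies share reads with the 4 and are not independent of them. Their calls and p-values are thus partly from the same reads and are no separate evidence for the differences in the 4. In KO+N-KR against KO+WT, 4 of 4 tested copies fell (0.256% of genes fell): Zscan4d (-2.33 ± 0.37, adjusted p = 0.00716), Tcstv1 (-2.32 ± 0.47, adjusted p = 0.0470), Zscan4a (-2.29 ± 0.31, adjusted p = 0.00206) and Zscan4f (-2.16 ± 0.32, adjusted p = 0.00402). The same 4 fell against KO (-1.92 to -1.66, with 8.67% of genes lower). None of 4 passed in KO against f/f, where 0 had an unadjusted p under 0.05 in edgeR and DESeq2 called 0. None passed in KO+WT against KO (1 unadjusted, 0 in DESeq2). The model averages over states that went opposite ways. In KO against f/f at day 1, Zscan4a was 1.96-fold, Zscan4d 2.06-fold, Zscan4f 1.98-fold and Tcstv1 1.84-fold lower, while the Zscan4 copies were higher at 3i and day 2. In KO+WT against KO the Zscan4 copies were higher at 3i and day 1 and lower at day 2. At day 1 and at day 2 against 3i, Zscan4a, Zscan4d and Zscan4f rose, with Zscan4d at 1.20 ± 0.29 at day 2, where 33% of all genes rose (32.4% at day 1).

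Beyond the copies, 59 further 2-cell-like genes were listed, of which 46 were in the table and 25 passed the filter on low counts. In KO+N-KR against KO+WT, 4 of the 25 fell and 0 rose, where 0.256% and 0.296% of all genes did. They were Gm4340 (-2.28 ± 0.32, adjusted p = 0.00286), Gm13040 and Gm13057, genes of the PRAME family with identical counts (-2.03 ± 0.29, adjusted p = 0.00286), and BC080695 (-2.37 ± 0.48, adjusted p = 0.0490). The calls of Gm13040 and Gm13057, here and below, repeat the same measurement. The fold change was below 0 for 24 of the 25, and their median was -1.47, against 0.004 over all genes tested. Gm13040 and Gm13057 are the same counts, and shared reads among the other genes of the list were not examined. The 25 are therefore not 25 separate measurements. At an unadjusted p under 0.05 edgeR had 17 of them, and DESeq2 called 8 of the 43 it tested (132 of all genes). Without day 2, 2 were called (70 of all genes). Fitted to the 24 libraries as 12 groups, whose p-values compare RNA samples and not lines, 15 were called, as were 2918 of all genes.

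Outside the Zscan4 copies, Gm4340 had the pattern most like the sum of the 4 over the 12 samples, by Pearson's r and by Spearman's rho. Its KO+N-KR levels were 3.73 CPM at 3i, 8.12 at day 1 and 5.74 at day 2. Its KO+WT levels were 27.4, 31.0 and 24.4 CPM. KO stood at 12.2, 9.77 and 27.8 CPM and f/f at 11.0, 22.1 and 26.3 CPM. The KO value at day 1 was thus under the f/f value and the day 2 values were near each other, as for the Zscan4 rows. Gm13040 stood at 1.10, 0.721 and 1.91 CPM in KO+N-KR and at 3.89, 4.56 and 6.53 CPM in KO+WT.

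**Figure D3:**
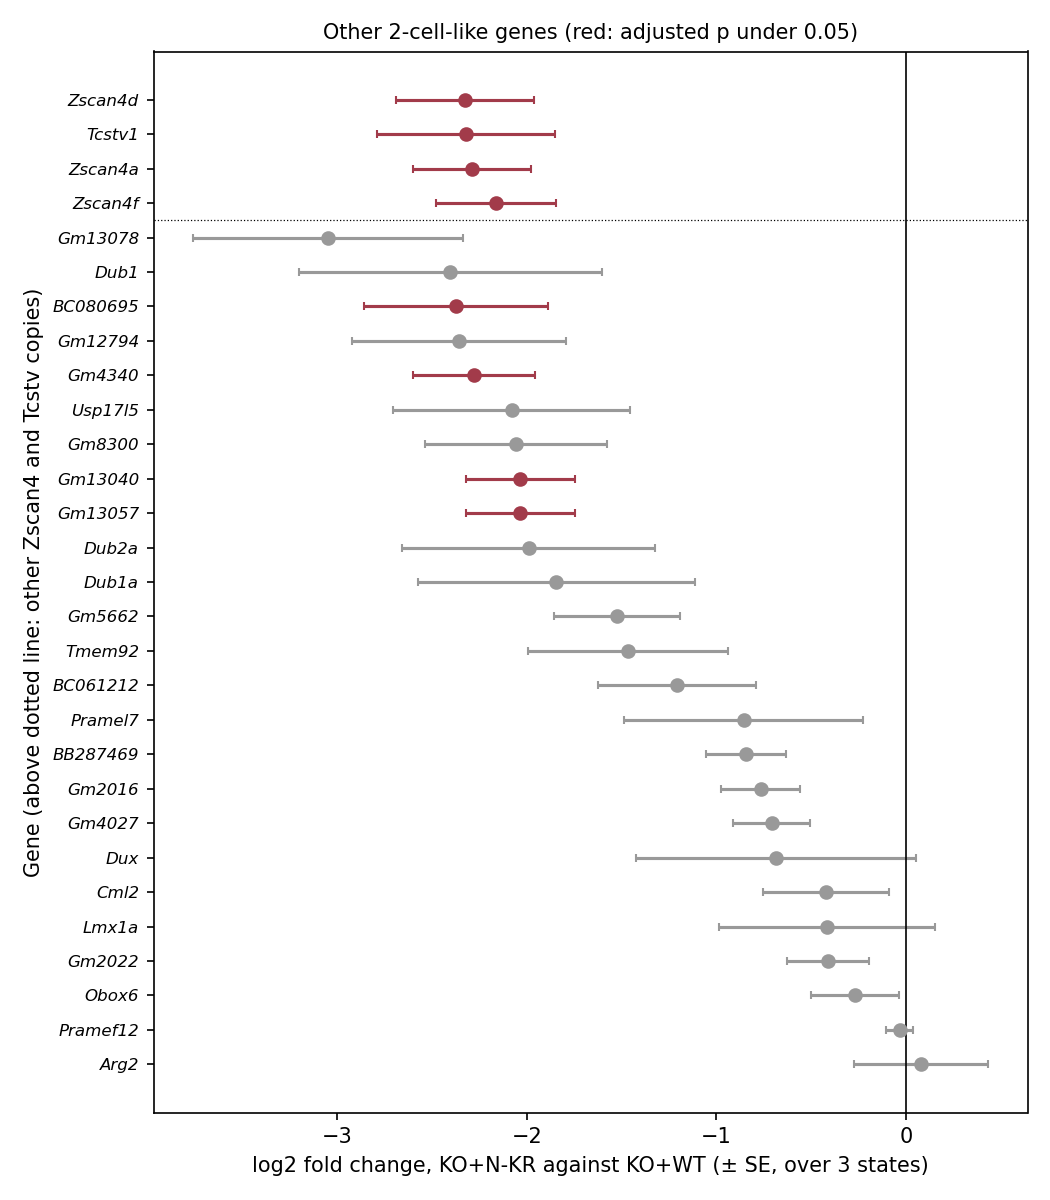
Log2 fold change (± SE) of KO+N-KR against KO+WT over 3 states for the 4 other Zscan4 and Tcstv copies (above the dotted line) and 25 further 2-cell-like genes, with called genes in red. Of the 25, 24 lie below 0 and 4 were called. Gm13040 and Gm13057 have identical counts, so the 25 are not all separate measurements.

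The other genes of the list were not called in this contrast or not tested. Pramef12, of the PRAME family, did not pass between KO+N-KR and KO+WT (-0.03 ± 0.07, adjusted p = 0.981) and rose in KO+WT against KO (0.35 ± 0.07, adjusted p = 0.00495), the 1 call of the list there (7.1% of genes rose). Dux had 2 to 33 counts in a group and did not pass in KO+N-KR against KO+WT (-0.69 ± 0.74, adjusted p = 0.937), and a difference of that size was not detectable at this depth. Zfp352, a zinc finger gene of the 2-cell embryo, had 1 to 10 counts in a group and was not tested. Over all genes 0.296% rose and 0.256% fell in this contrast, so lists of the following sizes would hold few calls or none at that share, and their counts say little about them. The listed activators of the 2-cell-like state gave 0 of 7 calls between KO+N-KR and KO+WT (1 unadjusted, 0 in DESeq2), with Dppa2 at -0.15 ± 0.09 and Dppa4 at -0.06 ± 0.08. The repressors gave 0 of 29 (1 unadjusted, 0 in DESeq2), with Trim28 at -0.01 ± 0.05 and Smchd1 at -0.05 ± 0.05. Of 11 PRC2 subunit genes, Eed alone passed (-0.97 ± 0.10, adjusted p = 0.000301). Of 9 telomere and shelterin genes 0 passed (1 unadjusted, 0 in DESeq2).

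In KO+N-KR against KO, 6 of the 25 further genes fell and 1, Pramef12, rose (0.32 ± 0.07), where 8.67% and 6.77% of genes did. The 6 were Gm13078 (-2.64 ± 0.75), Gm12794 (-2.17 ± 0.57), Gm8300 (-1.67 ± 0.50), Gm4340 (-1.46 ± 0.33), and Gm13040 and Gm13057 (-1.35 ± 0.30), with adjusted p from 0.00862 to 0.0371. In all 7 were called (2350 of all genes), 3 with replicate 2 libraries alone (1675), 0 without day 2 (1105) and 12 over the 24 libraries (7543). The activator Dppa3, a maternal factor, fell (-0.79 ± 0.19, adjusted p = 0.0149), as did the chromatin remodeller Smarca5 (-0.25 ± 0.05). Of the 29 repressors 4 rose, among them L3mbtl2 (0.47 ± 0.08) and Trim28 (0.18 ± 0.05), and 1, Smchd1, fell (-0.25 ± 0.05).

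In KO against f/f over the 3 states, none of the 25 further 2-cell-like genes passed (4.45% of genes rose and 4.32% fell), though 2 had an unadjusted p under 0.05. DESeq2 called 0 (1548 of all genes), and 4 were called over the 24 libraries (7201 of all genes). The model averages over states, and at day 1 alone Gm4340 stood at 9.77 CPM in KO and 22.1 in f/f, and Gm13040 and Gm13057 at 1.53 and 4.33 CPM each. The activators Dppa4 (-0.30 ± 0.08) and Smarca5 (-0.22 ± 0.05) fell, and 4 of 29 repressors fell: L3mbtl2 (-0.27 ± 0.08), Hdac1 (-0.25 ± 0.05), Daxx (-0.23 ± 0.07) and the demethylase Kdm1a (-0.19 ± 0.05), where 4.32% of genes fell. In KO+WT against KO, 9 of 29 repressors rose and 1 fell (7.1% and 8.73% of genes), with L3mbtl2 (0.43 ± 0.08), Atrx (0.30 ± 0.08) and Lin28a (0.30 ± 0.09) the largest rises and Smchd1 (-0.20 ± 0.05) the fall. The list of 25 had 1 call there (2410 of all genes). It had 2 with replicate 2 libraries alone (1746 of all genes) and 2 with no count filter (2364). It had 0 without day 1 (225), 5 without day 2 (1263) and 10 over the 24 libraries (7493).

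At day 2 against 3i, 10 of the 25 further genes rose and 2 fell, where 33% and 30.5% of genes did. The 2 that fell were Obox6 (-4.10 ± 0.22), an oocyte homeobox gene, and Pramel7 (-4.05 ± 0.65), of the PRAME family. The largest rises were the deubiquitinase genes Dub1 (1.87 ± 0.58) and Dub1a (1.75 ± 0.56), the LIM homeobox gene Lmx1a (1.56 ± 0.50), BC061212 (1.53 ± 0.34), Gm13078 (1.25 ± 0.46) and Gm12794 (1.25 ± 0.41). At day 1, 3 fell, Obox6 (-2.45 ± 0.19), Pramel7 (-1.83 ± 0.49) and Pramef12 (-0.22 ± 0.06), and 0 rose (33.2% and 32.4% of genes). With replicate 2 libraries alone, 6 were called at day 2 in place of 12 (8157 of all genes in place of 9660). At day 1, 8 were called without KO, in place of 3 (9464 of all genes in place of 9984).

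Markers of other cells were counted in the same contrasts. In KO+N-KR against KO+WT, where 0.296% of all genes rose and 0.256% fell, 6 of 13 tested endoderm genes rose and 0 fell, with the endocytic receptor gene Cubn at 2.06 ± 0.16, its partner Amn at 1.75 ± 0.33, the adaptor gene Dab2 at 1.29 ± 0.17, and the basement membrane genes Lama1 (0.96 ± 0.12), Col4a2 (0.88 ± 0.12) and Col4a1 (0.86 ± 0.09). Their list of 14 summed to 511 to 632 CPM over the KO+N-KR states and 290 to 444 CPM over the KO+WT states. The sum was mostly Lamb1 (46200 counts over all libraries), Col4a1 (25455), Lama1 (19741) and Col4a2 (13022), against 1113 for Gata4 and 853 for Gata6. Gata4, Gata6, Sox7, Sox17 and Foxa2 were not called in this contrast. Afp, a marker of visceral endoderm and liver, was listed at 0 in KO+WT in each state, and Ttr at 0 in KO+WT at 3i and day 1 and in KO+N-KR at 3i. In KO+N-KR, Afp had 1, 1 and 4 counts at 3i, day 1 and day 2. Of 15 tested feeder markers 0 passed (7 at an unadjusted p under 0.05, 1 in DESeq2), with a median of -0.46, and the 16 listed summed to 465 CPM at 3i in KO+N-KR and 773 CPM in KO+WT. Of 15 naive pluripotency genes 0 passed (2 unadjusted, 1 in DESeq2), and of 8 tested trophoblast genes 0 (1 unadjusted, 0 in DESeq2). In KO+WT against KO, 8 of 13 endoderm genes fell and 0 rose, and 6 of 15 feeder markers rose and 0 fell (8.73% of genes fell and 7.1% rose). In KO+N-KR against KO, 5 of 13 endoderm genes rose and 0 fell (6.77% and 8.67% of genes), and 0 of 15 feeder markers passed (3 unadjusted, 0 in DESeq2). In KO against f/f, 3 of 13 endoderm genes rose and 0 fell (4.45% and 4.32% of genes), and 0 of 15 feeder markers passed (2 unadjusted, 0 in DESeq2). The part of these cells in the Zscan4 differences was not tested.

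The genes whose level ran most like the sum of the 4 over the 12 samples were found by Pearson's r of log2 CPM among 11697 genes with at least 5 CPM in a sample. These were Zscan4a (0.998), Zscan4f (0.996), Gm4340 (0.988), Zscan4d (0.984), Gm13040 and Gm13057 (0.857 each), Fundc1, a mitophagy receptor gene (0.804), 1110028C15Rik (0.783), Sycp1, a synaptonemal complex gene (0.779), and Fgf17, a growth factor gene (0.757). The first 6 are in the lists above. Pearson's r does not measure the size of a change. 1110028C15Rik ran only from 9.14 to 12.3 CPM, while the sum of the 4 ran from 2.68 to 30.9 CPM. Fundc1 stood at 1.11 to 1.47 CPM in KO+N-KR and at 14.9 to 20.2 CPM in the other genotypes. The samples share lines and states, so these values describe the 12 samples only. By Spearman's rho 7 of the 10 remained among the top 10, and Fundc1 did not (0.399).

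**Figure D4:**
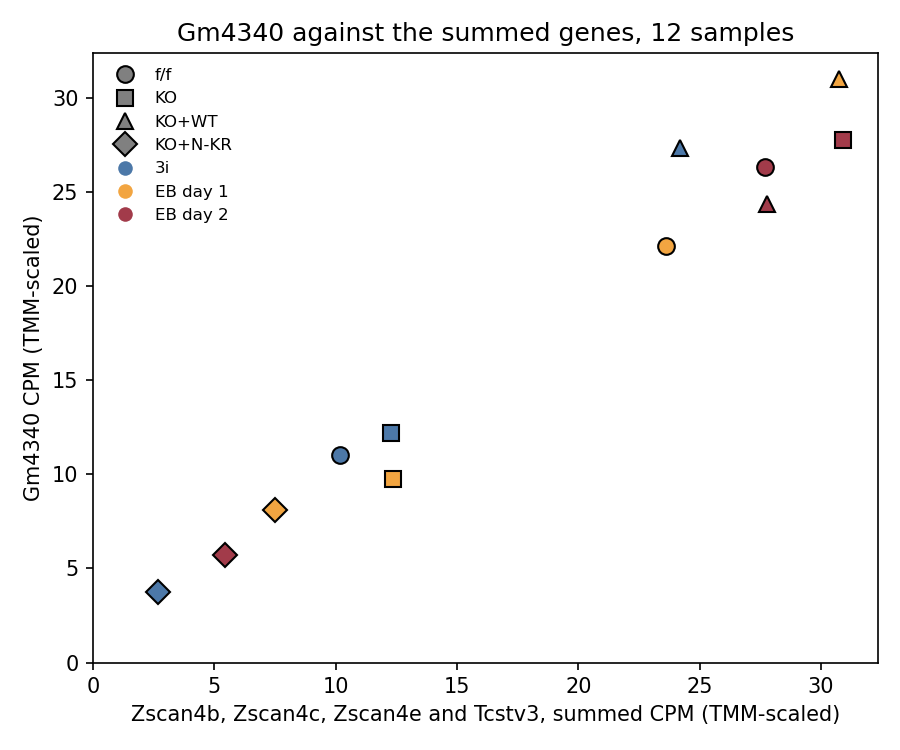
CPM of Gm4340 against the summed CPM of Zscan4b, Zscan4c, Zscan4e and Tcstv3 in the 12 samples, with genotype by shape and state by colour. The points fall in a low set, at 3.73 to 12.2 CPM of Gm4340, and a high set from 22.1 CPM up, with the 3 KO+N-KR samples lowest.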

How the data were processed

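Poly(A) RNA-seq of 24 libraries was analysed as raw read counts per gene symbol, which the authors deposited in 1 table of 30 columns. The 24 columns named as the libraries were used and the other 6 were not. Per the submitters' processing notes STAR 2.5.2b and DESeq2 were used and the build was mm9. No source used here names the counter, its strand setting, its handling of reads with several matches or the annotation.

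The 2 libraries of a group were summed, which gave 12 samples of 18017598 to 25160294 counts. Nothing in the labels says that libraries came from separate cultures. edgeR 4.0.16 in R 4.3.3 was used (TMM, filterByExpr, 15220 genes tested, additive genotype and state, 6 residual degrees of freedom, quasi-likelihood F-test, Benjamini-Hochberg), with DESeq2 1.42.0 as an alternative. Each SE is the absolute log2 fold change over the square root of F. The 4 genes passed the count filter. Ratios used a prior count of 2. On simulated counts for KO+N-KR against KO+WT, 200 genes were lowered. At 2-fold 89.5% of these were called, beside 6 false calls over 15085 genes, and at 4-fold 96%, beside 13 over 15092 genes. These shares cover the 200 lowered genes as a whole. All genes were drawn with 1 spread (coefficient of variation 7.97%), and genotype differences did not vary from state to state. The shares therefore do not say how many of the 2-cell-like genes would be called. Recovery of low-count genes, such as many of the 2-cell-like ones, was not tested. In the data, the 25 tested 2-cell-like genes had a median log2 fold change of -1.47 in this contrast, and 4 were called.

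The genes and lists were chosen with earlier results of these data known. Named were the 4 genes, the called genes of each list (at most 8 per contrast for the copies and 2-cell-like genes, 6 for other lists, the largest first) and the 10 genes most like the sum. Genes named although not called were chosen after their values were seen. Alternatives were library totals alone, DESeq2, no filter, single libraries, states or genotypes left out, other scalings and sums, and fits of 24 libraries.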

Additional observations from a re-analysis of the deposited data

Results flagged for a closer look

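In a pair of comparisons the summed counts of the 4 genes lay in opposite directions in different states, when libraries of the same number were compared. In KO against f/f the log2 ratio was 0.27 at 3i and 0.16 at day 2 but -0.93 at day 1. In KO+WT against KO it was 0.97 at 3i and 1.31 at day 1 but -0.16 at day 2. Both day 2 ratios were small, with counting intervals of 0.00 to 0.32 and -0.31 to -0.002, which are narrower than the true ones. The KO+WT libraries at day 2 (28.6 and 26.5 CPM) overlapped those of KO (32.4 and 28.3 CPM). The direction at day 2 is therefore not settled. The difference between states was not tested, because each state holds 1 sample per genotype, and the comparisons share the KO samples.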

How the results depend on the processing

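Of 108 alternative values of the summed log2 ratios, 96 stayed within the counting interval of the reported value, 10 moved beyond it and 2 turned. Tcstv3 alone, at 22 counts or fewer, turned KO against f/f at 3i (-0.11 in place of 0.27) and KO+WT against KO at day 2 (0.38 in place of -0.16). It moved KO against f/f at day 1 to -0.28, KO+WT against KO to 1.61 at 3i and 1.64 at day 1, and KO+N-KR against KO+WT at day 2 to -2.67. Zscan4c alone, an alternative chosen after seeing that reads can be counted in several rows, gave 0.37 for KO against f/f and -0.35 for KO+WT against KO at day 2, and -1.75 for KO+N-KR against KO+WT at day 1. With 1 library of each group, KO against f/f at day 1 ran from -1.11 to -0.67, and KO+N-KR against KO+WT from -3.60 to -2.59 at 3i and from -2.31 to -1.81 at day 1. The cause was not tested.

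Of 62 alternative counts of called 2-cell-like genes, 40 were within 1.5 times of the reported one. Those that moved were, for KO+N-KR against KO+WT (4), 8 in DESeq2, 2 without EB day 2 and 15 over 24 libraries. For KO+N-KR against KO (7) they were 0 without EB day 2 and 12 over 24 libraries, and 3 to 5 with 1 library of each group. For KO+WT against KO (1) they were 2 with no filter, 0 without EB day 1, 5 without EB day 2 and 10 over 24 libraries, and 1 to 2 with 1 library of each group. For KO against f/f (0), 4 were called over 24 libraries. For EB day 1 (3) they were 5 with no filter, 5 in DESeq2, 8 without KO and 5 over 24 libraries, and for EB day 2 (12) 6 to 8 with 1 library of each group. The cause was not tested. Library totals alone moved none of these counts by over 1.5 times.

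With the replicate number as a block in the fit of 24 libraries the counts were the same as without it: 4, 10, 15, 12 and 5 in KO against f/f, KO+WT against KO, KO+N-KR against KO+WT, KO+N-KR against KO and EB day 1 against 3i. In the same order, the fit with the block called 7225, 7526, 2980, 7575 and 11849 of all genes. Same-numbered libraries did not deviate together in the 9509 genes checked (Pearson's r -0.029 to 0.040 over 66 pairs of groups). The number still goes with the column names, which have 1 prefix for all replicate 1 libraries and another for all replicate 2 libraries. Values from replicate 1 or replicate 2 libraries alone are thus also splits by prefix. Depth limits Tcstv3, which had 0 to 22 counts in a group; a count of 0 allows up to 3 counts.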
